A study of Mus musculus with 11 samples.

Results

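The genes described here carry out antigen presentation on MHC class I. They are 10 genes of the 21899 listed in the expression table, taken by symbol: the heavy chains H2-K1 and H2-D1, the light chain B2m, the transporter subunits Tap1 and Tap2, the loading factor Tapbp, the inducible proteasome subunits Psmb8, Psmb9 and Psmb10, and the regulator Nlrc5. All 10 were listed, and all 10 passed the minimum of a mean of 0.5 FPKM (fragments scaled to exon length and to the library's total) over the 11 libraries.

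The libraries came from wild-type BALB/c mice, a strain that carries the H2-d haplotype of the class I locus. The PBS group (n = 3) was not sensitized and was given saline only. The OVA/LPS/Vehicle group (n = 4; libraries 12, 34, 56 and 78) was sensitized with ovalbumin and alum, challenged with ovalbumin and then lipopolysaccharide in the nose, and given vehicle into the trachea. The OVA/LPS/GGsTop group (n = 4) went through the same steps with GGsTop, an inhibitor of γ-glutamyl transferase, in place of vehicle. The tissue is labelled trachea, while the study's methods describe airways dissected free of the lung without the trachea. Whether a library is 1 mouse or a pool is not stated, so p-values measure the spread between these libraries only. The comparison of OVA/LPS/Vehicle with PBS asks what the exacerbation model does to airway RNA, and the comparison of OVA/LPS/GGsTop with OVA/LPS/Vehicle asks what the inhibitor does in that model.

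Class I molecules show short peptides from inside the cell to CD8 T cells. The peptides are cut by the proteasome, carried into the endoplasmic reticulum by a transporter made of TAP1 and TAP2, fitted onto the heavy chain with the help of tapasin, and displayed once β2-microglobulin has joined the heavy chain. Interferon-γ raises the whole set: it replaces the catalytic subunits of the constitutive proteasome with PSMB8, PSMB9 and PSMB10 and induces NLRC5, which switches on class I promoters.

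Several facts about the libraries bear on every value below. Each held between 14513136 and 18632382 fragments, recovered from the FPKM values. PBS 3 stood apart by base composition: genes read higher there as their GC content rose, by 0.53 on the log2 scale per 10 points of GC, against between -0.26 and 0.11 in the other libraries, and the 4 OVA/LPS/Vehicle libraries had the lowest slopes (-0.26 to -0.19). Mitochondrial genes took 14.5% to 19.5% of FPKM in OVA/LPS/Vehicle, 7.40% to 11.1% in OVA/LPS/GGsTop and 2.08% to 10.1% in PBS. OVA/LPS/Vehicle 12 stood apart by thymus and fat genes, described beside Nlrc5. Airway epithelial markers were abundant (12 genes, summed FPKM of 32060 to 54910), and markers of alveoli, heart muscle and fat were also present. The 8 alveolar markers summed to 10400 to 16670 FPKM in PBS, 5424 to 8911 in OVA/LPS/Vehicle and 4799 to 12190 in OVA/LPS/GGsTop. Of these, 3 were called lower in OVA/LPS/Vehicle than in PBS by the test used below, and 3 after GC correction. The highest alveolar and endothelial sums were in PBS 3, so that library differed in marker content as well as base composition. In bulk tissue, fewer cells of a type and less RNA per cell cannot be told apart.

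The promoters of 8 of the 10 genes were in the RefSeq promoter set for build GRCm38.p6. Tap1 and Psmb9 are transcribed in opposite directions from a shared stretch of 225 bases, the DNA between their first transcribed bases, and their levels on the log2 scale were correlated over the 11 libraries (Pearson r = 0.83, and 0.89 without OVA/LPS/Vehicle 12, as a description of libraries that also differ in cell content and base composition). It is shown with the start sites of the heavy chains, the light chain and Psmb8, because the heavy chains and B2m are made into 1 complex but their mean differences between OVA/LPS/Vehicle and PBS had opposite signs. Capitals mark any match to 3 motifs searched on both strands: GAAANNGAAA, the core of an interferon-stimulated response element; TTCNNNGAA, the core of a GAS (interferon-γ-activated site) element; and CCAAT, the box bound by NF-Y.
Tap1-Psmb9 (chr17:34187331-34187555, plus strand, from Psmb9 towards Tap1): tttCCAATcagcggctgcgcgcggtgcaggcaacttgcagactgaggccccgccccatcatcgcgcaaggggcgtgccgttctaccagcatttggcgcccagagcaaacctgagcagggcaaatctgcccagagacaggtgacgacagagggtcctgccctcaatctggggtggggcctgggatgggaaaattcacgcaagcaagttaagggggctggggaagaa
H2-K1 (chr17:34000348-34000467, minus strand): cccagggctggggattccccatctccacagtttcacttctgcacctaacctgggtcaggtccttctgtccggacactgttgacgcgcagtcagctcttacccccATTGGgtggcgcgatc
H2-D1 (chr17:35262974-35263093, plus strand): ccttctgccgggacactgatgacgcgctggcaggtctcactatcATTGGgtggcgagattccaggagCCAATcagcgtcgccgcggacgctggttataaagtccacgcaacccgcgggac
B2m (chr2:122147537-122147686, plus strand): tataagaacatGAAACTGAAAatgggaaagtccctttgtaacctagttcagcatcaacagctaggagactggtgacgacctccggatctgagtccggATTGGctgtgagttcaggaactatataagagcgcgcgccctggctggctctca
Psmb8 (chr17:34198075-34198194, plus strand): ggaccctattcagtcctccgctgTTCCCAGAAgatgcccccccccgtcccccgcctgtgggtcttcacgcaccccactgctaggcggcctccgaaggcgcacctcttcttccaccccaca

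The stretches of the last 4 genes end 1 base before the first transcribed base. The interferon-stimulated core, searched as exact letters, was found in B2m alone among these 8 promoters, 139 bases before the start, and in 3.44% of all 32851 promoters. Elements that differ from the searched letters were not looked for, so a promoter without a match may still hold one. The GAS core was found in Psmb8 alone of the 8, and in 8.30% of all promoters. CCAAT boxes, present in 37.4% of all promoters, were found in H2-K1, H2-D1, B2m, Tapbp and the shared Tap1 and Psmb9 stretch. These are matches of letters in the reference genome, which is of another strain than the mice.

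Before any comparison, the genes differed widely in level. On the FPKM scale, which is per length, B2m averaged 899.8 over the 11 libraries, H2-D1 241.1, H2-K1 66.8, Tapbp 52.9 and Psmb10 41.2. The lower levels were those of Psmb9 at 11.5, Tap2 at 10.5, Tap1 at 10.2, Psmb8 at 6.10 and Nlrc5 at 2.78. B2m lay above H2-D1 and H2-D1 above H2-K1 in every library, with ranges that did not meet. Psmb9, Tap2 and Tap1 could not be put in order, since the ranges of neighbours overlapped and each exceeded the next in 8 of the 11 libraries. H2-K1 and H2-D1 have near-identical relatives, and the reads of BALB/c mice were counted on a reference of another haplotype, so the share of reads given to each heavy chain is uncertain in all groups. Summed over 24 class I heavy chain genes, the FPKM was 471 to 697 in PBS, 393 to 547 in OVA/LPS/Vehicle and 375 to 514 in OVA/LPS/GGsTop, and H2-K1 with H2-D1 made up 58.2% to 67.4% of it.

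**Figure D1:**
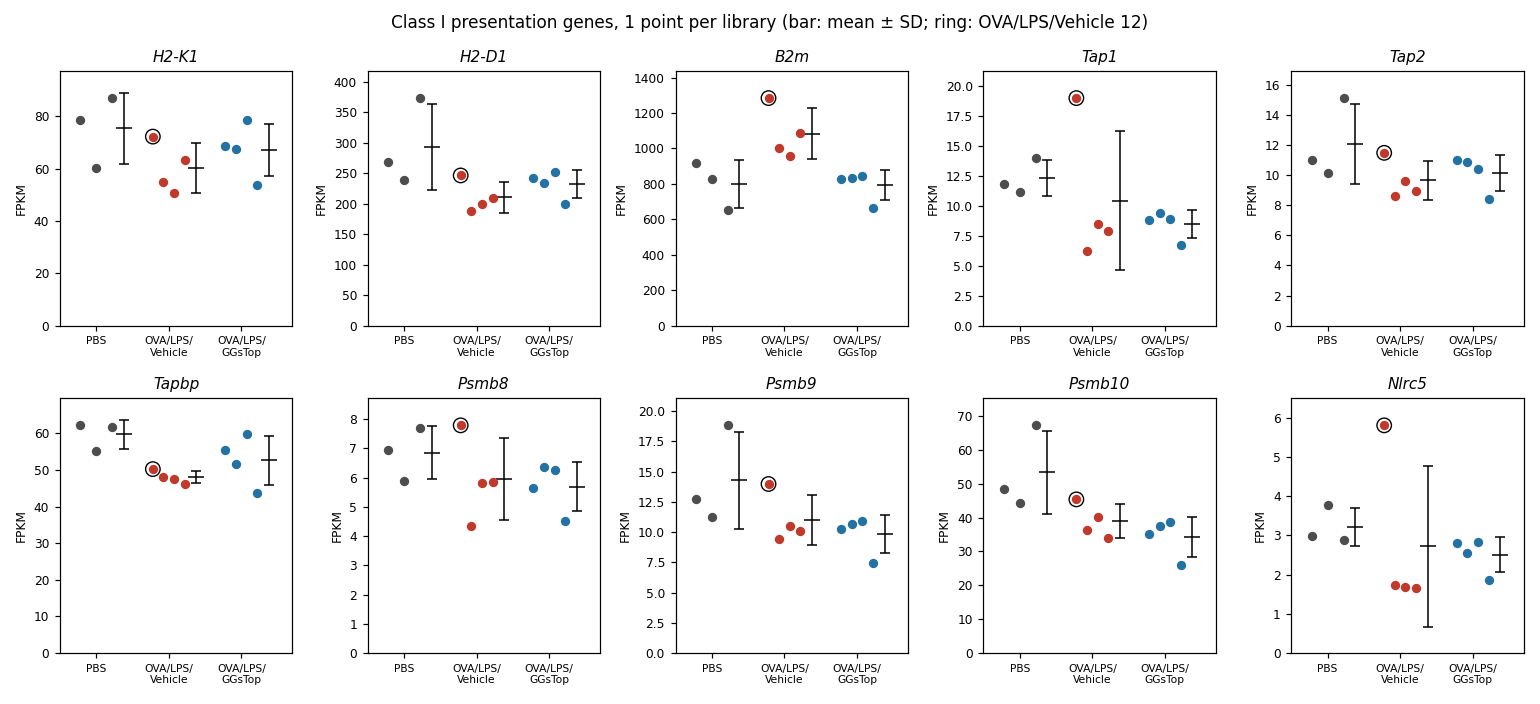
FPKM of the 10 class I genes in each library, 1 point per library, by group (PBS n = 3, OVA/LPS/Vehicle n = 4, OVA/LPS/GGsTop n = 4), with the mean and SD as a bar and OVA/LPS/Vehicle 12 ringed. B2m is the gene whose OVA/LPS/Vehicle libraries all lie above the other groups, and Nlrc5 in OVA/LPS/Vehicle 12 (5.80 FPKM) lies far above the other 3 libraries of its group.

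In OVA/LPS/Vehicle against PBS, the class I set was not raised as a whole. Of the 10 genes, 9 had lower means in OVA/LPS/Vehicle on the log2 scale and 1, B2m, a higher mean. Only H2-D1 and Tapbp passed the test, both lower (limma on log2(FPKM + 1), Benjamini-Hochberg adjustment over the 14004 genes tested). These are 2 of 10 genes, where 38% of all genes tested were called. The median log2 fold change of the 10 was -0.31, beside -0.01 over all genes. After a correction of each library for GC content, 0 of the 10 were called (20.8% of all genes), the median of the 10 moved to -0.09, and that of all genes was -0.07.

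H2-D1, the more abundant of the measured classical heavy chains, read 269, 239 and 373 FPKM in the PBS libraries and 246, 188, 200 and 209 in OVA/LPS/Vehicle. PBS 3 was the highest of all, and OVA/LPS/Vehicle 12 lay above PBS 2, so the groups overlapped. On the log2 scale H2-D1 fell by 0.46 (SE 0.17, adjusted p = 0.049). It stood at -0.27 (adjusted p = 0.180) without PBS 3 and at -0.17 (adjusted p = 0.380) after GC correction, and neither passed the test. With each of the 11 libraries dropped in turn it was called 3 times, and its adjusted p ran from 0.018 to 0.180. Its partner H2-K1 had the same lean, with 78.7, 60.4 and 86.9 FPKM in PBS and 72.2, 55.0, 50.5 and 63.3 in OVA/LPS/Vehicle. That difference of -0.31 on the log2 scale (SE 0.17) did not pass the test (adjusted p = 0.157).

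Tapbp encodes tapasin, which holds the empty heavy chain to the transporter. It read 62.2, 55.2 and 61.8 FPKM in PBS and 50.2, 48.0, 47.5 and 46.2 in OVA/LPS/Vehicle. Each OVA/LPS/Vehicle library lay below each PBS library. On the log2 scale Tapbp fell by 0.31 (SE 0.11, adjusted p = 0.049), and it stood at 0.02 (adjusted p = 0.919) after GC correction. Tapbp and H2-D1 are GC-rich (57.1% and 55.9% of the bases of the longest transcript, against a median of 49.95% over the genes tested). With each library dropped in turn Tapbp was called 3 times of 11, and its adjusted p ran from 0.026 to 0.120 (without PBS 1).

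B2m, the light chain shared by all class I molecules, ran the other way. It read 919, 829 and 650 FPKM in PBS, 1284, 1003, 959 and 1085 in OVA/LPS/Vehicle, and 829, 831, 844 and 665 in OVA/LPS/GGsTop. All 4 OVA/LPS/Vehicle libraries lay above all 7 of the others. Relative to PBS it stood higher by 0.44 on the log2 scale (SE 0.18, adjusted p = 0.065), which did not pass the test, although limma's voom on the recovered fragments called it (0.50, adjusted p = 0.018). B2m is poor in GC, at 41.2% of the bases of its longest transcript, a value that 91% of the genes tested exceed. The other 9 genes lie between 52.5% and 57.1%. After GC correction B2m stood at -0.02 (adjusted p = 0.931). The ratio of B2m to the summed heavy chains, both in FPKM, was 2.35 to 2.55 in OVA/LPS/Vehicle, 0.93 to 1.76 in PBS and 1.64 to 1.78 in OVA/LPS/GGsTop. This ratio was taken without GC correction and was not tested. It sets a GC-poor gene over a sum made mostly of the GC-rich H2-K1 and H2-D1.

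Over the 13987 genes with a known GC content, the log2 fold change of OVA/LPS/Vehicle against PBS fell as GC content rose (Spearman rho = -0.59 across genes, which are not independent replicates), and that of OVA/LPS/GGsTop against OVA/LPS/Vehicle rose with it (0.62). These comparisons share the OVA/LPS/Vehicle libraries. The 10 class I genes lie inside that cloud in both comparisons. Whether the GC trend comes from the libraries' preparation or from the tissue was not tested.

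**Figure D2:**
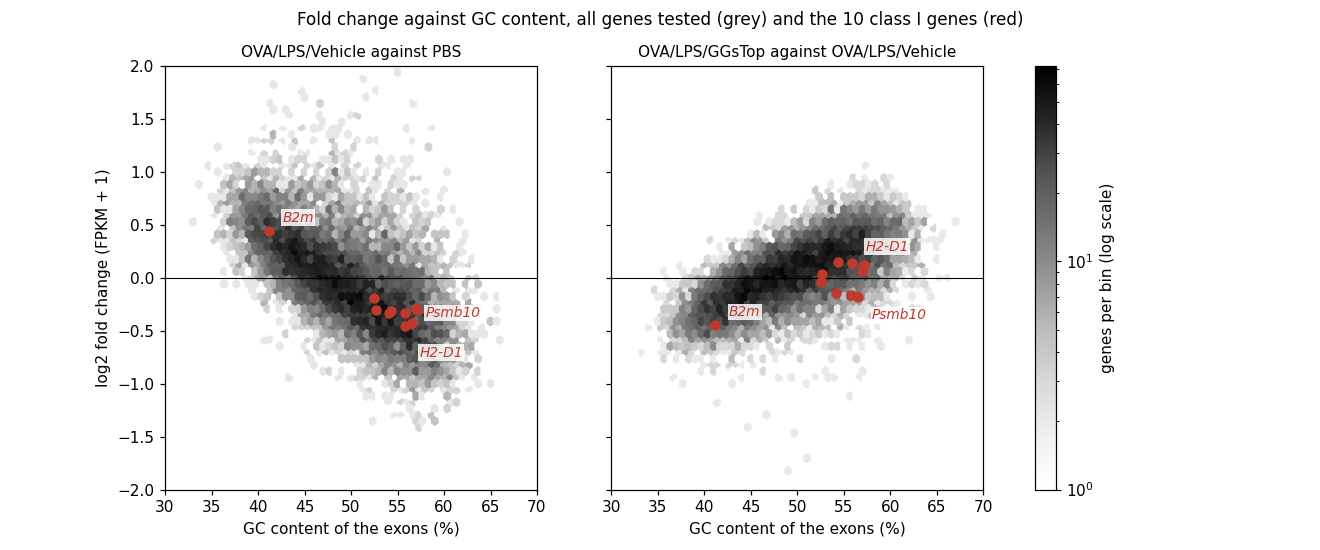
Log2 fold change of each gene (vertical axis, FPKM + 1) against the GC content of its longest transcript in percent (horizontal axis). The 13987 genes are grey bins shaded by number on a log scale and the 10 class I genes are red points. A few genes lie beyond the limits of the axes. B2m sits at the low-GC end, higher in OVA/LPS/Vehicle than in PBS (0.44) and lower in OVA/LPS/GGsTop than in OVA/LPS/Vehicle (-0.45), while the other 9 sit at the GC-rich side.

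Nlrc5, the transactivator of class I genes, read 2.99, 3.77 and 2.88 FPKM in PBS and 5.80, 1.73, 1.68 and 1.67 in OVA/LPS/Vehicle. These values rest on 227 to 764 fragments a library. In OVA/LPS/Vehicle, 3 libraries lay below every PBS library and library 12 above all of them. With all libraries the difference of -0.31 on the log2 scale (SE 0.29, adjusted p = 0.411) did not pass the test. Without library 12 it was -0.64 (SE 0.14) and Nlrc5 passed the test (adjusted p = 0.011). It also passed without library 12 after GC correction (-0.50, adjusted p = 0.045), a setting chosen after seeing the data. With each of the 11 libraries dropped in turn Nlrc5 was called 1 time, and its adjusted p ran from 0.011 to 0.651.

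Tap1, a subunit of the peptide transporter, had the same shape, with 11.8, 11.2 and 14.02 FPKM in PBS and 19, 6.27, 8.48 and 7.92 in OVA/LPS/Vehicle. Again library 12 was the highest of all and the other 3 lay below PBS. On the log2 scale Tap1 differed by -0.33 (SE 0.28, adjusted p = 0.347) with all libraries and fell by 0.64 (SE 0.15, adjusted p = 0.013) without library 12. With GC correction as well it stood at -0.33 (adjusted p = 0.122). With each of the 11 libraries dropped in turn Tap1 was called 1 time, and its adjusted p ran from 0.013 to 0.668. Tap2, the other subunit, varied less, with 11.01, 10.1 and 15.1 FPKM in PBS and 11.5, 8.62, 9.57 and 8.93 in OVA/LPS/Vehicle, and did not pass the test (-0.29, SE 0.15, adjusted p = 0.142). Leaving out library 12 made the calls H2-D1, Tap1 and Nlrc5, all lower: 3 of the 10 genes, beside 33.1% of all genes. With GC correction as well H2-D1 stood at -0.22 (adjusted p = 0.305).

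Library 12 had the highest value of its group for all 10 genes. It also held RNA of genes that mark developing T cells in the thymus. Rag1, which cuts antigen receptor genes, read 8.53 FPKM there (874 fragments) against at most 0.10 in the other 10 libraries. Dntt, which adds bases at those cuts, read 13.8 against at most 0.30. Psmb11, the catalytic subunit of the thymus form of the proteasome, read 0.78 (58 fragments) against at most 0.07. These are large differences in 1 library, with 7 of the 8 thymus markers at their highest there and their summed FPKM at 42.5 against 7.11 to 11.5 elsewhere. Most of the sum elsewhere was Cd1d1, which is also counted among the heavy chain relatives. It read 6.41 to 10.1 FPKM in the other 10 libraries and 13.4 in library 12. Psmb11 is not among the 8. None of the 8 was at 0 in every library. The 9 T cell markers were also all highest in library 12, with a sum of 93.8 FPKM against 23.8 to 41.5 in the other OVA/LPS/Vehicle libraries, 31.1 to 52.5 in PBS and 19.5 to 32.9 in OVA/LPS/GGsTop. Of 8 adipocyte markers 6 were highest in library 12, with a sum of 895 FPKM against at most 455 elsewhere, and Ucp1, the uncoupling protein of brown fat, read 363 against at most 138. The part of this RNA in the class I values of library 12 was not tested.

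**Figure D3:**
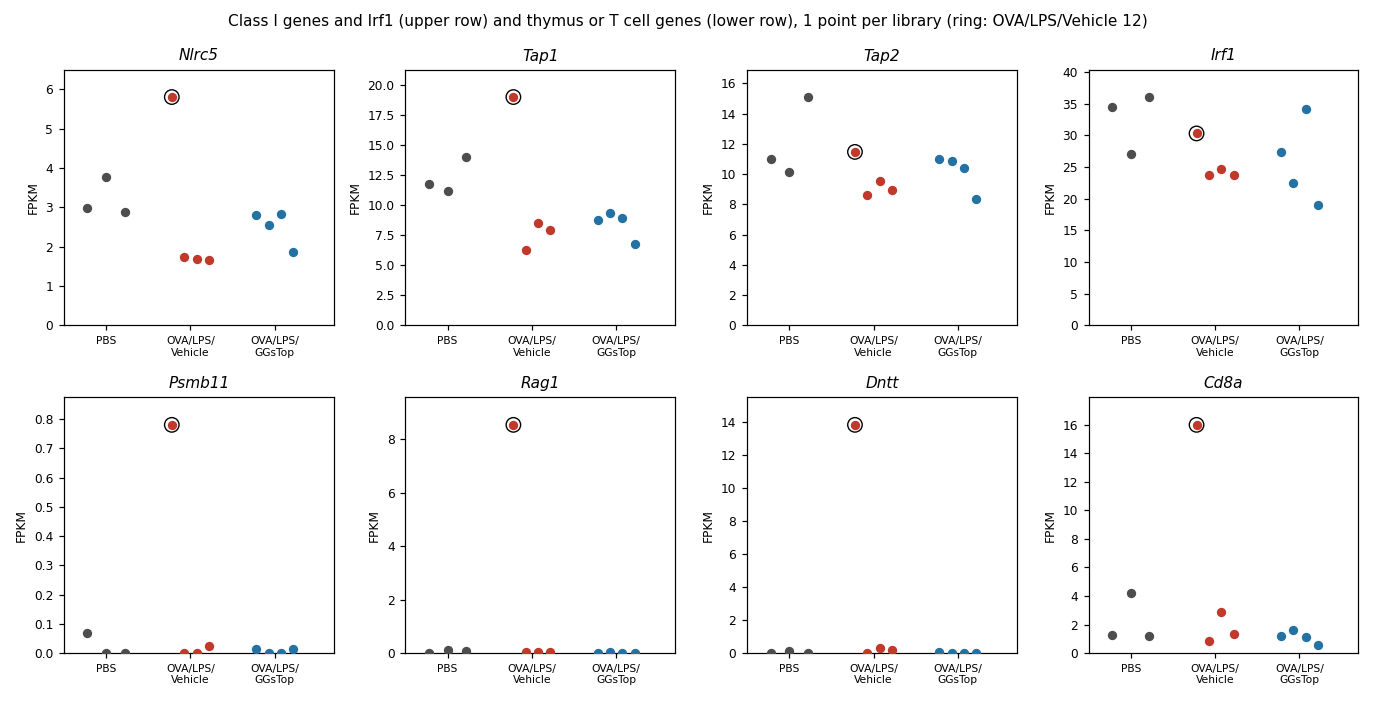
FPKM of the class I genes Nlrc5, Tap1 and Tap2 and of the interferon pathway gene Irf1 (upper row), and of Psmb11, Rag1, Dntt and Cd8a, expressed in the thymus or in T cells (lower row), 1 point per library by group, with OVA/LPS/Vehicle 12 ringed. That library holds the highest value of all 11 in 6 of the panels, the exceptions being Tap2 and Irf1, which were highest in PBS 3.

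None of the inducible catalytic subunits passed the test in OVA/LPS/Vehicle against PBS. Psmb10 read 48.4, 44.5 and 67.3 FPKM in PBS and 45.4, 36.4, 40.1 and 34.01 in OVA/LPS/Vehicle. PBS 3 was the highest and library 12 overlapped PBS. The difference of -0.43 on the log2 scale (SE 0.17) did not pass the test (adjusted p = 0.071), and it was -0.12 after GC correction and -0.25 without PBS 3. Psmb9 read 12.8, 11.2 and 18.8 FPKM in PBS and 13.98, 9.40, 10.5 and 10.1 in OVA/LPS/Vehicle, a log2 difference of -0.33 (SE 0.19, adjusted p = 0.177) that was -0.13 after GC correction and also without PBS 3. Psmb8 read 6.95, 5.90 and 7.70 in PBS and 7.78, 4.34, 5.83 and 5.84 in OVA/LPS/Vehicle, a difference of -0.19 (SE 0.17, adjusted p = 0.367) that the GC correction brought to -0.07. For both the groups overlapped, and the 95% interval of the Psmb8 difference ran from -0.55 to 0.17.

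In OVA/LPS/GGsTop against OVA/LPS/Vehicle, 0 of the 10 class I genes passed the test, where 8.71% of all genes did. At an unadjusted limma p under 0.05 there was 1 of the 10, B2m, beside 4319 of the 14004 genes tested. The median log2 fold change of the 10 was -0.0015, beside 0.03 over all genes. After GC correction again 0 were called (0.4% of all genes), with a median of -0.16 over the 10 and of 0.02 over all genes.

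B2m had the largest difference of the 10 between these groups before GC correction. Its 665 to 844 FPKM in OVA/LPS/GGsTop lay below the 959 to 1284 of OVA/LPS/Vehicle in every library, a difference of -0.45 on the log2 scale (SE 0.16) that did not pass the test (adjusted p = 0.095). It passed in limma's voom on the recovered fragments (-0.52, adjusted p = 0.043), without PBS 3 in the fit (adjusted p = 0.040) and with library weights (adjusted p = 0.022). After GC correction the difference was -0.16 (adjusted p = 0.567), smaller than those of Psmb10, Tap1 and Psmb9.

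For the heavy chains the difference was small and of the other sign. H2-K1 read 68.6, 67.4, 78.4 and 53.8 FPKM in OVA/LPS/GGsTop, which overlapped OVA/LPS/Vehicle, and the log2 difference was 0.15 (95% interval -0.19 to 0.50). H2-D1 read 242, 235, 252 and 199, a difference of 0.14 (-0.20 to 0.48). Both leaned the other way after GC correction, at -0.03 and -0.09.

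Transport and loading genes also overlapped. Tap1 read 8.79, 9.39, 8.94 and 6.74 FPKM in OVA/LPS/GGsTop, a log2 difference of -0.16 with all libraries and of 0.15 without OVA/LPS/Vehicle 12 (adjusted p = 0.694 and 0.518), and of -0.39 after GC correction (adjusted p = 0.366). Tap2 read 10.98, 10.9, 10.4 and 8.38, and Tapbp 55.4, 51.7, 59.7 and 43.7, with differences of 0.07 and 0.12, which were -0.19 and -0.14 after GC correction. The lowest value for both was in OVA/LPS/GGsTop 4.

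The proteasome subunits and the regulator did not pass the test either. Psmb8 read 5.64, 6.36, 6.26 and 4.52 FPKM in OVA/LPS/GGsTop, Psmb9 10.3, 10.7, 10.9 and 7.48, and Psmb10 35.1, 37.5, 38.9 and 25.9. The log2 differences were -0.04, -0.15 and -0.19. After GC correction they were -0.15, -0.32 and -0.43, the last with an unadjusted limma p of 0.011 and an adjusted p of 0.134. Nlrc5 read 2.80, 2.55, 2.83 and 1.85, each above OVA/LPS/Vehicle 34, 56 and 78 and below library 12. Its log2 difference was 0.04 (SE 0.27, adjusted p = 0.941), and 0.37 (SE 0.13, adjusted p = 0.0999) without library 12. Without that library 0 of the 10 were called, beside 5.28% of all genes.

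OVA/LPS/GGsTop 4 was the lowest library of its group for all 10 genes. Most of its endothelial markers were also low: Cdh5, the cadherin of endothelial junctions, read 100 FPKM there against 157 to 236 in the other 3 OVA/LPS/GGsTop libraries. Vwf, of the same list, was not low there, at 26.4 FPKM against 25.5 to 34.5. The 8 endothelial markers summed to 991 to 1842 FPKM in PBS, 726 to 892 in OVA/LPS/Vehicle and 524 to 1181 in OVA/LPS/GGsTop, and 5 of the 8 were called lower in OVA/LPS/Vehicle than in PBS (0 of 8 after GC correction). Other markers moved with this library too. Acta2, the actin of smooth muscle, read 542 FPKM there against 238 to 308 in the rest of its group, and the 8 smooth muscle and cartilage markers summed to 1071 FPKM, against at most 733 in PBS and 487 in OVA/LPS/Vehicle. Sftpb, a surfactant protein of alveoli, read 357 FPKM against 645 to 1014. The part of these cell types in the class I values was not tested.

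In OVA/LPS/GGsTop against PBS, all 10 genes had lower means in OVA/LPS/GGsTop on the log2 scale, B2m by a difference near 0, and 0 passed the test, where 2.88% of all genes did. At an unadjusted limma p under 0.05 there were 2, Psmb9 and Psmb10, beside 2873 of the 14004 genes tested, and voom called 0. The median of the 10 was -0.25, beside 0.01 over all genes, and after GC correction -0.24 beside -0.05, again with 0 called (4.25% of all genes).

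Psmb10, the inducible subunit that takes the place of PSMB7, differed most. Its 25.9 to 38.9 FPKM in OVA/LPS/GGsTop lay below the 44.5 to 67.3 of PBS in every library, by -0.61 on the log2 scale (SE 0.17, adjusted p = 0.080), and by -0.55 (adjusted p = 0.068) after GC correction. Psmb9 (-0.48, SE 0.19, adjusted p = 0.184), Tap1 (-0.50, SE 0.28, adjusted p = 0.330) and Nlrc5 (-0.27, SE 0.29, adjusted p = 0.618) did not overlap between these groups either. The share of all genes without overlap was not counted, so the lack of overlap only describes these genes. The widest intervals belonged to genes whose spread was set by OVA/LPS/Vehicle 12, since all groups share 1 estimate of the spread: without that library the SE of Tap1 fell to 0.14 and its adjusted p was 0.090. B2m had the smallest difference, at -0.005 (SE 0.18).

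**Figure D4:**
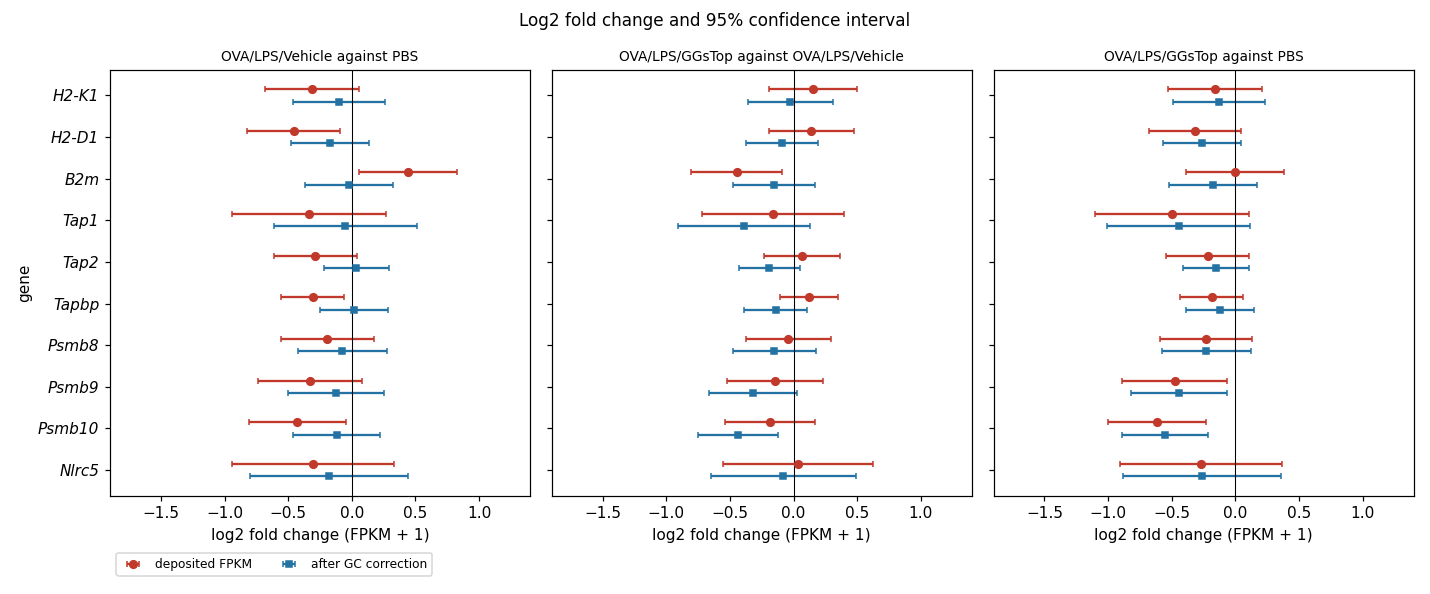
Log2 fold change (horizontal axis, FPKM + 1) of the 10 class I genes in the 3 comparisons, with 95% confidence intervals from limma before adjustment for the number of genes, from the deposited FPKM (red circles) and after GC correction (blue squares). In the left panel the correction moves B2m from 0.44 to -0.02 and H2-D1 from -0.46 to -0.17; in the right panel Psmb10 stands at -0.61 before and -0.55 after it.

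The exchange of catalytic subunits was followed as the ratio of each inducible subunit to the constitutive subunit whose place it takes, as log2((FPKM + 1)/(FPKM + 1)) within a library, with exact two-sided permutation tests over 9 comparisons. Psmb10 exceeded Psmb7 in every library, while Psmb8 lay below Psmb5 and Psmb9 below Psmb6. As mean log2 ratio ± SD, Psmb10/Psmb7 was 2.21 ± 0.55 in PBS (n = 3), 1.36 ± 0.19 in OVA/LPS/Vehicle (n = 4) and 1.36 ± 0.36 in OVA/LPS/GGsTop (n = 4). All 3 PBS libraries (1.76 to 2.83) lay above all 4 OVA/LPS/Vehicle libraries (1.19 to 1.62), a difference of -0.84 with the smallest p that 3 against 4 libraries allow (exact permutation p = 0.0286, 0.257 after Benjamini-Hochberg adjustment over 9 tests). Part of this ratio is Psmb7, which read higher in OVA/LPS/Vehicle (14.5 ± 0.846 against 10.7 ± 1.93 FPKM, log2 fold change 0.41, SE 0.13, adjusted p = 0.025). PBS 3 held the lowest Psmb7 value (8.63 FPKM), and without that library Psmb7 was not called. The difference in the ratio was -0.05 after GC correction, and -1.07 to -0.53 as each library was left out (-0.53 without PBS 3). Psmb10 alone stood at -0.12 after that correction, so Psmb7 was then not higher in OVA/LPS/Vehicle. Between OVA/LPS/GGsTop and OVA/LPS/Vehicle the ratio differed by 0.0008 before GC correction. After the correction it differed by -0.55 (exact permutation p = 0.0286, the smallest possible, and 0.257 adjusted). Between OVA/LPS/GGsTop and PBS the ratio differed by -0.84 before GC correction (exact permutation p = 0.0571, and 0.257 adjusted).

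The other ratios overlapped between all groups. Psmb8/Psmb5 was -1.23 ± 0.33 in PBS (n = 3), -1.50 ± 0.47 in OVA/LPS/Vehicle and -1.33 ± 0.39 in OVA/LPS/GGsTop (both n = 4). Psmb9/Psmb6 was -1.93 ± 0.25, -2.17 ± 0.22 and -2.26 ± 0.27 in the same order. The exact permutation p of the 6 differences lay between 0.171 and 0.743, and between 0.514 and 0.836 after adjustment.

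**Figure D5:**
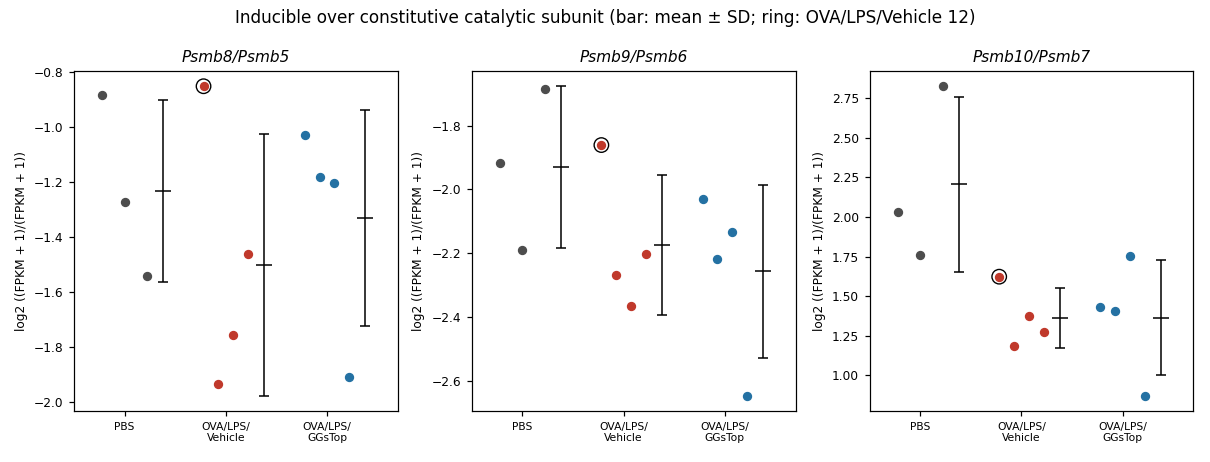
Log2 ratio of an inducible to a constitutive catalytic subunit in each library, 1 point per library by group, with mean and SD as a bar and OVA/LPS/Vehicle 12 ringed; the vertical axes do not start at 0. Psmb10/Psmb7 is higher in the 3 PBS libraries (1.76 to 2.83) than in the 4 OVA/LPS/Vehicle libraries (1.19 to 1.62), and the other ratios overlap.

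The rest of the class I pathway held 114 further genes in 7 lists, of which 97 reached the minimum level and were tested. In OVA/LPS/Vehicle against PBS 25 of the 97 were called, 16 higher and 9 lower, where 38% of all genes were. After GC correction 14 were, 6 higher and 8 lower (20.8% of all genes). The balance depended on the scaling: with each library at the same FPKM total 7 were higher and 25 lower, at the same median 19 and 6, and with voom 22 and 5. Peptide loading and trimming genes gave the largest share: of 13, 7 were higher and 2 lower (1 and 1 after GC correction). Pdia3, the thiol oxidoreductase of the loading complex, rose from 124 ± 29.6 FPKM in PBS to 184 ± 7.84 in OVA/LPS/Vehicle (log2 fold change 0.59, SE 0.15, adjusted p = 0.014), and it stayed called after GC correction (0.46, adjusted p = 0.030). Tapbpl, a relative of tapasin that edits peptides, fell from 23.4 ± 4.85 to 15.8 ± 2.37 FPKM (-0.53, SE 0.14, adjusted p = 0.016). Erap1, the aminopeptidase that trims peptides in the endoplasmic reticulum, rose by 0.42 (adjusted p = 0.029) but stood at -0.03 after GC correction. Tpp2, a cytosolic peptidase, rose by 0.67 (adjusted p = 0.0097) and stood at 0.01 after GC correction, and Lnpep, an aminopeptidase of endosomes, rose by 0.78 (adjusted p = 0.011) and stood at 0.27 (adjusted p = 0.059).

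The inputs to class I transcription were as mixed, with 3 of 19 genes tested higher and 3 lower. Ifngr2, a chain of the interferon-γ receptor, rose from 15.6 ± 1.59 FPKM in PBS to 21.7 ± 1.57 in OVA/LPS/Vehicle (0.45, SE 0.10, adjusted p = 0.007) and stayed called after GC correction (0.46, adjusted p = 0.015). Rela, a subunit of NF-κB, fell from 52.7 ± 9.70 to 28.9 ± 1.39 FPKM (-0.83, SE 0.14, adjusted p = 0.004). Ifng itself was at the edge of detection, with 0 to 6 fragments in any library, and lay below the minimum level for the test. Irf1, a transcription factor of the interferon response, did not pass the test (-0.33, adjusted p = 0.166).

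Among the heavy chain relatives, 13 of 20 reached the minimum level. H2-M3, which presents formylated peptides, fell from 16.0 ± 2.55 FPKM in PBS to 10.97 ± 1.10 in OVA/LPS/Vehicle (-0.50, SE 0.12, adjusted p = 0.010; -0.45 and 0.024 after GC correction). H2-M2 rose on average from 1.03 ± 1.31 to 3.79 ± 1.43 FPKM (1.37, SE 0.37, adjusted p = 0.016). Its PBS libraries read 0.30, 2.54 and 0.24 FPKM (7, 61 and 7 fragments), and OVA/LPS/Vehicle 34 at 2.12 lay below PBS 2. Of the 14 constitutive subunits of the 20S core 1, Psmb7, was called, and 0 were without PBS 3. Of 22 genes of the 19S cap 3 were higher and 3 lower. Psme4, an activator of the 20S core, was the called gene of its list (0.61, SE 0.12, adjusted p = 0.006).

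In OVA/LPS/GGsTop against OVA/LPS/Vehicle 5 of these 97 genes were called, with Procr higher and Pdia3, Erap1, Ifngr2 and Creb1 lower, where 8.71% of all genes were. At the same FPKM total 4 were higher and 1 lower. After GC correction 0 of the 5 were. Pdia3 went from 184 ± 7.84 FPKM to 128 ± 10.2 (-0.53, SE 0.14, adjusted p = 0.043, and 0.076 after GC correction). Ifngr2 went from 21.7 ± 1.57 to 16.1 ± 0.851 FPKM (-0.41, SE 0.09, adjusted p = 0.027, and 0.054 after GC correction). The 14 subunits of the 20S core all had lower means, by a median of -0.14 on the log2 scale, and 0 passed the test. In OVA/LPS/GGsTop against PBS limma called 0 of the 97 genes, where 2.88% of all genes were called, and voom also called 0. At an unadjusted limma p under 0.05 there were 11 of the 97, beside 2873 of all 14004 genes tested.

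The genes whose pattern over the 11 libraries was most like the mean standardized profile of the 10 class I genes were H2-T23 (Pearson r = 0.98), Map2k1 (0.96), H2-Q4 (0.95), Batf2 (0.94) and Tmc8 (0.94). H2-T23 and H2-Q4 are class I heavy chain genes themselves. Within the 10, each of 9 genes had an r of 0.75 to 0.95 with that mean, of which it is a part, and B2m 0.07. The libraries share base composition and cell content, so these values describe them and carry no test.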

How the data were processed

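RNA-seq libraries of mouse airway were analysed from 1 table of FPKM values per Ensembl gene, which the authors deposited for all 11 libraries. Per the submitters' processing notes, reads were trimmed with cutadapt 1.15, aligned with HISAT2 2.0.5 and counted with HTSeq 0.9.1, and build mm39 is named. The study's own test used read counts. Here FPKM was tested on a log scale, with recovered fragments as an alternative. Symbols (21795 of 21899 IDs), exon lengths and GC content came from GENCODE M21, of another build. GC content was that of the longest transcript of each gene. The coordinates given are therefore those of RefSeq promoters on GRCm38.p6 alone. Whole fragments were recovered from FPKM and length for 98.0% of genes within a tolerance of 0.02 fragments or 2e-04 of the value.

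The genes and lists were chosen with earlier results of these data known. log2(FPKM + 1) was fitted for all 11 libraries with limma 3.58.1 (R 4.3.3, mean-variance trend), for the 14004 genes whose mean reached 0.5 FPKM. Calls are at an adjusted p under 0.05. A fold change on this scale understates low genes. The GC correction removed from each library a natural spline (5 df) of the deviations from gene means on GC content. Subunit ratios were compared by exact permutation in Python 3.11.15. The fit was tested on simulated data. Named were all 10 class I genes, genes called in each list (up to 6 by smallest p), Psmb5 to Psmb7, Ifng and Irf1. 1 further gene of that rule is not reported here. From marker lists, up to 3 genes beside a result were named. The 5 genes most like the class I mean were those with the highest Pearson r. Rag1, Dntt, Psmb11, Cd8a, Cd1d1, Cdh5 and Vwf were chosen after their values were seen.

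Alternatives were the pseudocount, minimum level, trend, library weights, scaling, GC correction, voom, pairs of groups alone, each library left out and a replicate block. PBS and OVA/LPS/GGsTop share the numbers 1 to 3, and deviations from group means correlated at 0.37, 0.43 and 0.43 within numbers, but at 0.46 between PBS 1 and OVA/LPS/GGsTop 3. The labels do not say what a number shares. Proteins were not used here, nor promoters of Tap2 and Nlrc5.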

Additional observations from a re-analysis of the deposited data

Results flagged for a closer look

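In groups of 4 libraries, a library whose gap to its nearest neighbour took up more than Dixon's 95% critical share of the group's range was set aside for a closer look, over 38 gene and group combinations, of which chance picks about 5%. Nlrc5 at 5.80 FPKM in OVA/LPS/Vehicle 12 lay away from the other 3 libraries of its group by a share of 0.986. Irf1 at 30.3 FPKM did so in the same library (0.851). B2m at 665 FPKM lay below the other OVA/LPS/GGsTop libraries in replicate 4 (0.915). Ifng at 0.0489 FPKM in OVA/LPS/GGsTop 3 stands for 1 fragment, with 0 in the other 3 libraries. Tap1 in OVA/LPS/Vehicle 12 fell just short of the critical share. None of these was tested further.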

How the results depend on the processing

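In OVA/LPS/Vehicle against PBS the 2 class I genes called became 1 with no minimum level, 6 with library weights, 5 at the same FPKM total, 0 at the same median, 0 after GC correction, 1 (B2m, higher) with voom and 0 with the 2 groups alone, and 0 to 4 as each library was left out. The 25 further pathway genes called became 46 with library weights, 14 after GC correction and 12 to 31 as each library was left out. With PBS 3 and OVA/LPS/Vehicle 12 both left out, a setting chosen after seeing the data, 15 were called, and after GC correction without OVA/LPS/Vehicle 12, likewise chosen, 8 and 1 class I gene (Nlrc5). After GC correction B2m stood at -0.022, Tap2 at 0.037 and Tapbp at 0.020 on the log2 scale, and B2m at -0.11 and Tapbp at 0.028 when library 12 was also left out.

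In OVA/LPS/GGsTop against OVA/LPS/Vehicle the 0 class I genes called became 1, B2m, with library weights and with voom, and 0 to 1 as each library was left out. The 5 pathway genes became 1 with no minimum, 26 with library weights, 8 with voom, 20 with the 2 groups alone, 16 with PBS 3 and OVA/LPS/Vehicle 12 left out, 0 after GC correction with and without library 12, and 0 to 19 as each library was left out (19 without PBS 3). Differences near 0 turned sign. With library weights Tap1 stood at 0.080 and Psmb8 at 0.073, and at the same FPKM total Psmb8 at 0.041. With PBS 3 and OVA/LPS/Vehicle 12 left out Tap1 stood at 0.145 and Psmb8 at 0.079. After GC correction H2-K1 stood at -0.026, H2-D1 at -0.090, Tap2 at -0.19, Tapbp at -0.14 and Nlrc5 at -0.080, and without library 12 H2-D1 at -0.042, Tap2 at -0.14 and Tapbp at -0.15. As each library was left out, Tap1 ran from -0.34 to 0.145, Psmb8 from -0.16 to 0.079 and Nlrc5 from -0.078 to 0.37. The cause of these changes was not tested.

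In OVA/LPS/GGsTop against PBS the 0 class I genes called became 1, Psmb10, with library weights, and 0 to 1 as each library was left out (1 without PBS 2), and the 0 pathway genes became 9 with library weights, 2 after GC correction with and without library 12, and 0 to 6 as each library was left out. B2m ran from -0.15 to 0.10 over the libraries left out. With the replicate number as a block (replicate block, numbers 1 to 3, without OVA/LPS/GGsTop 4) 0 class I and 0 pathway genes were called, also with GC correction, and B2m stood at 0.077; it changed no call. Of the ratios, Psmb8/Psmb5 ran from -0.25 to 0.092 against PBS, Psmb9/Psmb6 from -0.16 to 0.047 and Psmb10/Psmb7 from -0.13 to 0.17 against OVA/LPS/Vehicle as each library was left out, and Psmb10/Psmb7 stood at -0.55 after GC correction in the latter (exact permutation p = 0.0286, 0.257 adjusted).

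Of 710 repeats of the single class I gene values, 631 kept direction and side of the threshold. Scaling to the same FPKM total moved the median of all genes in OVA/LPS/Vehicle against PBS from -0.01 to -0.15, and the genes called from 2231 higher and 3096 lower to 1232 and 4570; scaling to the same median moved those of OVA/LPS/GGsTop against OVA/LPS/Vehicle from 966 higher and 254 lower to 344 and 354. Of the 10 class I genes, Nlrc5 and Psmb8 rest on the fewest fragments.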
